A study of Drosophila melanogaster with 48 samples.

Results

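The odorant-binding protein genes described here are those outside the clusters at bands 56 and 57 and outside Obp51a. Members were all genes whose symbol is Obp followed by a digit, with Obp56, Obp57 and Obp51a left out and lush (also called Obp76a) added. Among 11981 genes with a probe set of a single symbol, 48 were odorant-binding protein genes and 34 of these were members, measured by 37 probe sets. Obp50b, Obp50c and Obp83a had no probe set with a single symbol and are not reported. The rule used names and no measured value. Each gene is represented by its probe set of highest mean signal over all arrays.

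Odorant-binding proteins are small secreted carriers, first known from the fluid that bathes the dendrites of olfactory neurons in insect sensilla. They bind hydrophobic odorants and pheromones in that fluid, and several are made in taste organs, fat body, glia or the male reproductive tract, with no place in smell. In the antenna, LUSH binds alcohols and is needed for the response of trichoid sensilla to the male pheromone cis-vaccenyl acetate. Obp83b, formerly OS-E, lies in trichoid sensilla, Obp84a in coeloconic sensilla, and Obp28a is an abundant antennal protein. Obp49a is secreted in taste sensilla, where it takes part in the suppression of sweet taste by bitter compounds, and Obp99b, formerly turn on sex-specific, is male-biased in the fat body of the head.

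RNA of adult Drosophila melanogaster was hybridised to 48 Affymetrix arrays. Larvae of 8 numbered lines (158, 304, 362, 379, 380, 774, 786 and 859) had grown on medium enriched with tomato paste, on medium with 9% ethanol or on standard cornmeal-molasses medium. After eclosion all adults lived on standard medium at 25 °C with 12 h of light a day, before tests of behaviour toward benzaldehyde and before RNA extraction. Each of the 24 combinations of line and medium has 2 arrays, which makes 16 arrays a medium and 6 a line. What the line numbers stand for and the sex of the flies are not given in the labels, which name the whole body and, on 4 arrays, an age of 3 to 5 days. Eggshell genes and genes of the male accessory gland both gave high signal on most arrays. In whole flies, more cells of a type and more RNA per cell cannot be told apart. Whether paired arrays hold flies of separate cultures is not stated, so p-values that rest on their spread may measure technical spread.

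The values are signals of the MAS5 algorithm on a linear scale, taken here to log2, and a difference of 1 is a doubling. Every array had a trimmed mean of 500.009 to 500.016, so the arrays had been scaled to a common target, and the median signal was 85.9 to 163. The 2 arrays of a combination correlated with r between 0.784 and 0.991 over the tested probe sets. Array titles are spelled in 2 ways, which may mark a batch: 15 have a hyphen (11 tomato, 4 ethanol, 0 standard) and 33 have spaces. On 9 arrays (6 tomato, 3 ethanol, 0 standard) the eggshell index, an average of log2 signals over 11 genes of chorion and vitelline membrane made by ovarian follicle cells, was low, at 3.90 to 10.32, against 10.91 to 13.50 on the other 39. Of these 9, 6 carry a hyphen and 3 a space. Both properties follow the larval medium, so values split by them are given beside several medium results.

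Of the 34 members, 19 passed the filter, which kept the 60% of probe sets with the highest mean signal, and 15 lay below it, near background. The filter lies at a log2 signal of 5.90 (signal 59.7). As a yardstick for background, 95% of the 63 probe sets of gustatory receptor genes, which are hardly transcribed in whole flies, had a mean at or under 5.04, and 0 of them passed the filter. Signals of different probe sets do not measure relative amounts of RNA, so levels are given per gene and are compared only between samples.

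**Figure D1:**
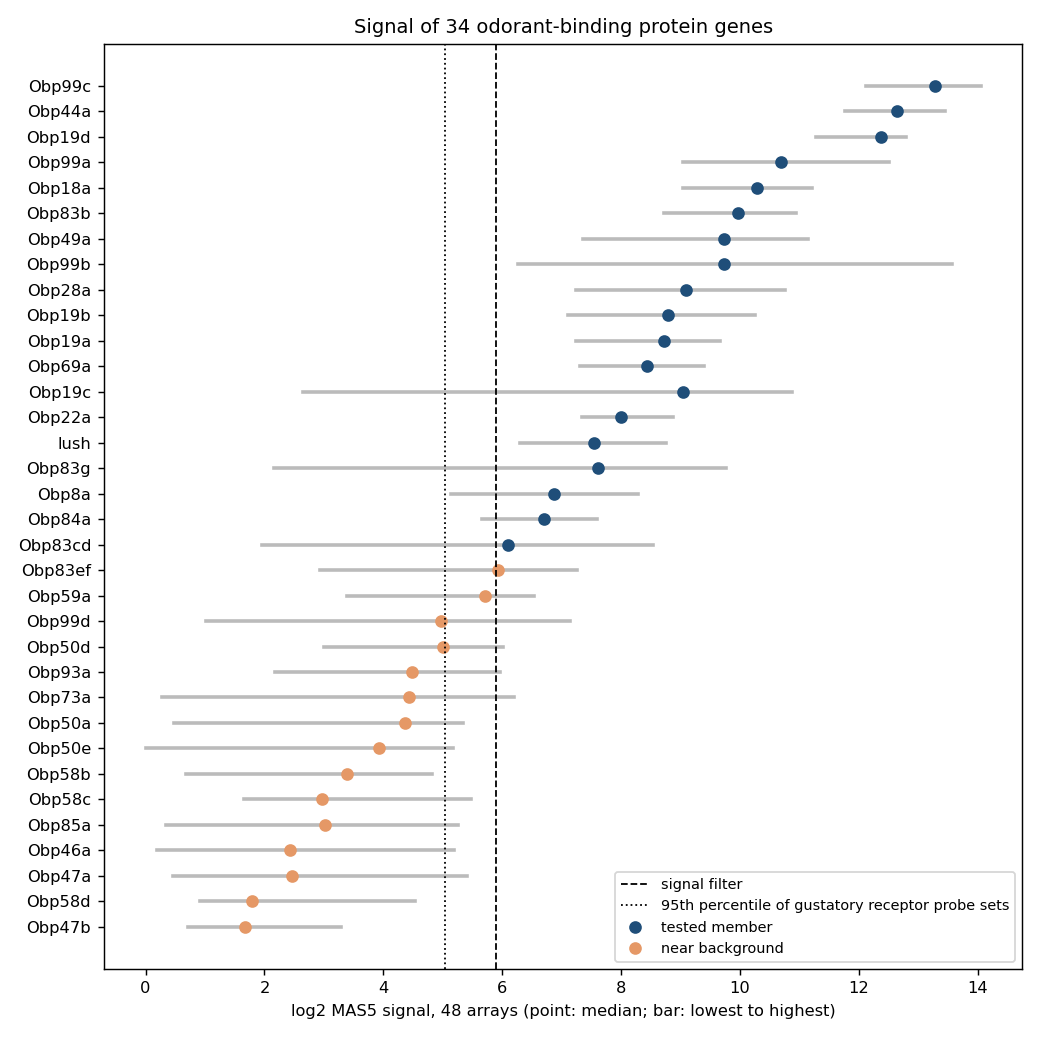
Log2 MAS5 signal (x axis) of the 34 members (y axis) on 48 arrays; points are medians and bars run from the lowest to the highest array. The 19 tested members have a mean above the signal filter at 5.90 (dashed line), while most of the other 15 also lie under the level that bounds 95% of gustatory receptor probe sets, 5.04 (dotted line).

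Obp99c had a mean log2 signal of 13.24 over the 48 arrays, with single arrays from 12.11 to 14.05. Obp44a, which is made by glia of the nervous system, had a mean of 12.68 and single arrays from 11.77 to 13.45. Obp19d, known from antennae and taste organs, averaged 12.33 with arrays from 11.28 to 12.80. None of these 3 came near the filter on any array. The mean was 10.77 for Obp99a, 10.29 for Obp18a, 9.95 for Obp83b, 9.47 for Obp49a, 9.42 for Obp99b and 9.02 for Obp28a. Among the genes of band 19, Obp19b averaged 8.75, Obp19a 8.63 and Obp19c 8.36. Obp19c was unlike its neighbours in its spread over single arrays, 2.64 to 10.86, with 5 of 48 arrays under the filter level. Obp69a averaged 8.39, Obp22a, which is found in seminal fluid, 8.07, lush 7.58 and Obp8a, likewise a seminal fluid protein, 6.74. Obp84a averaged 6.66.

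Obp83g (mean 7.40) and Obp83cd (mean 6.03, the lowest among the 19) had isolated low arrays. Obp83g was at 2.17 on 1 tomato array of line 774, whose other array of the same combination had 8.54. It was also at 3.08 on 1 standard array of line 786 and at 3.16 on 1 of line 380, and lay under the filter level on 6 of 48 arrays. Obp83cd was under it on 20 of 48 arrays. With Obp83ef between them, these genes are consecutive in the RefSeq gene table, with no other gene start between them. In 18 of 24 combinations Obp83g differed between the 2 arrays in the same direction as Obp83cd, and in 18 of 24 in the same direction as Obp83ef; Obp83cd and Obp83ef shared a direction in 14 of 24. These counts were chosen after the values had been seen and have no test.

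The 15 members near background were Obp83ef (mean log2 signal 5.75), Obp59a (5.59), Obp99d (4.91), Obp50d (4.85), Obp93a (4.40), Obp73a (4.07), Obp50a (3.66), Obp50e (3.49), Obp58b (3.18), Obp58c (3.18), Obp85a (2.99), Obp46a (2.61), Obp47a (2.56), Obp58d (1.98) and Obp47b (1.74). Obp83ef and Obp59a, a protein of antennal humidity sensing, lay just outside the filter and above 5.04, whereas Obp83cd and Obp84a lay just inside the filter. A signal near background on whole-fly arrays does not show that a gene is silent in a small organ such as the antenna. The Plus-C subfamily, whose members carry extra conserved cysteines, made up 11 of the 34 members, and 10 of these 11 were near background, the exception being Obp49a. Of the other 23 members, 5 were near background.

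The lines differed in many of the 19 tested members. The first question was whether line means, averaged over the 3 media, differed beyond the spread between the 2 arrays of a combination. They did for 13 of 19 members (68.4%) at an adjusted p under 0.05, in a background of 61.8% of all 11261 tested probe sets, so the share of members was close to the background. At an unadjusted p under 0.05 there were 15 of 19, against 68.3%, and the standard-medium arrays alone called 12 of 19, against 48.6%. The range between the highest and the lowest line mean had a median of 0.99 (log2, 1.98-fold) over the members and 0.75 over all tested probe sets. Line accounted for a median of 36.5% of the sum of squares of a member, against 33.0% for all tested probe sets, and medium for 3.89% against 3.91%. With error taken from the line by medium variation, which asks whether line differences recur across media, 8 of 19 members were called in a background of 37.3%. The 8 were Obp8a, Obp18a, Obp19a, Obp22a, Obp28a, Obp49a, Obp99a and Obp99b.

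**Figure D2:**
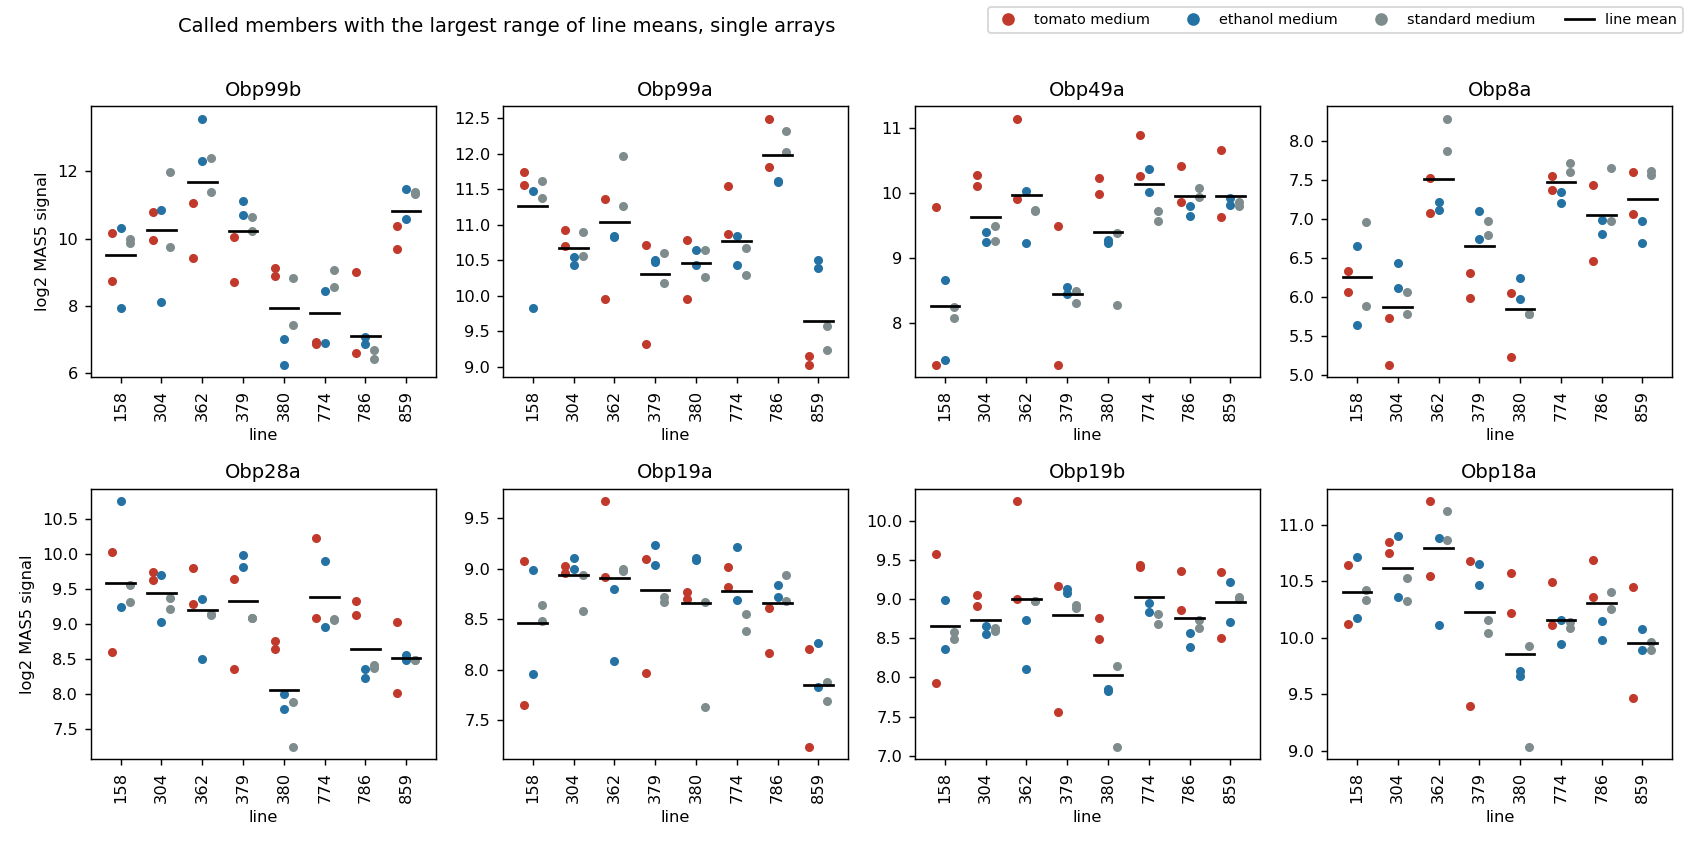
Log2 MAS5 signal (y axes, each with its own range) of the 8 called members whose line means spanned the largest range, for each of the 8 lines (x axes); points are single arrays coloured by larval medium, and horizontal bars are line means. Obp99b spans 4.58 between line 362 and line 786, Obp99a is highest in line 786, and Obp8a separates lines 362 and 774 from lines 304 and 380.

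Obp99b differed most among the members. In line 362 it had 9.42, 11.85 and 13.56 (lowest, median and highest of 6 arrays), against 6.42, 6.79 and 9.00 in line 786. No array of line 786 reached the lowest array of line 362. The line means were 11.69 for line 362, 10.81 for line 859, 10.25 for line 304, 10.24 for line 379, 9.51 for line 158, 7.93 for line 380, 7.79 for line 774 and 7.11 for line 786. The gene thus had a group of 5 lines above 9.5 and a group of 3 lines under 8. The difference of 4.58 between the extremes is 23.9-fold, a range that exceeded that of 99.2% of tested probe sets (F = 21.4, adjusted p = 2.7e-08). Line accounted for 71.0% of its sum of squares, and the standard-medium arrays alone gave F = 18.5 (adjusted p = 2.6e-04). The arrays of 6 of 28 pairs of lines did not overlap, in a background of 7.69% of pairs over all tested probe sets. Because the gene is male-biased in heads, the male accessory gland index, the mean log2 signal of 13 of 14 listed genes, is given beside it: its median was 11.46 in line 362 and 10.77 in line 786, with arrays from 11.15 to 11.68 and from 10.64 to 11.56. In lines 380 and 774, where Obp99b was low, that index had medians of 11.54 and 11.44. The remaining lines had medians from 11.32 in line 158 to 11.82 in line 379. The testis index, the mean log2 signal of 9 of 10 listed genes, had medians of 10.82 in line 362 and 11.20 in line 786. The part of either index in the line difference was not tested.

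Obp99a, named for the same chromosome band, had another order of lines. It had 11.60, 11.92 and 12.50 (lowest, median and highest) in line 786, against 9.03, 9.41 and 10.51 in line 859. Every array of line 786 lay above every array of line 859, and the means of 11.98 and 9.65 differed 5.02-fold (F = 15.3, adjusted p = 6.6e-07). Line 786, the highest for Obp99a, was thus the lowest for Obp99b, and line 859, the lowest for Obp99a, was the second highest for Obp99b.

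Obp49a was lower in 2 lines than in the rest. Its arrays had 9.58, 10.13 and 10.89 in line 774, against 7.35, 8.15 and 9.79 in line 158, and the means of 10.14 and 8.26 differed 3.69-fold (F = 9.67, adjusted p = 3.4e-05). Line 379, at a mean of 8.44, was close to line 158, and the other 6 line means were between 9.39 and 10.14. Set against the mean of the other 7 lines, line 158 was lower by 1.38 (SE 0.25, adjusted p = 2.1e-04) and line 379 by 1.18 (SE 0.25, adjusted p = 0.0013).

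Obp8a had the largest share of variation due to line among the members, 74.6% of its sum of squares. It had 7.07, 7.37 and 8.28 in line 362 and 7.20, 7.46 and 7.72 in line 774. Line 304 had 5.13, 5.92 and 6.43, and line 380 had 5.23, 5.88 and 6.24. Both of the high lines lay above both of the low ones on every array. In all, 11 of 28 pairs of lines did not overlap, in a background of 7.69% of pairs over all tested probe sets. The line means differed (F = 22.1, adjusted p = 2.0e-08). On 8 of 48 arrays, 3 each of lines 304 and 380 and 2 of line 158, the signal lay under the filter level of 5.90, as did the means of lines 304 (5.88) and 380 (5.84), so the size of the difference is uncertain and no fold is given. The male accessory gland index had a median of 11.46 in line 362 and 11.44 in line 774, against 11.37 in line 304 and 11.54 in line 380, and its part in the line difference was not tested. Obp22a, the other seminal fluid member, was highest in line 379 (8.51) and lowest in line 304 (7.61), a range of 0.90 (adjusted p = 0.0020), and was called higher in line 380, where Obp8a was at its lowest.

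Obp28a was highest in line 158, with 8.60, 9.43 and 10.76, and lowest in line 380, with 7.24, 7.94 and 8.76. The arrays of these lines overlapped, and the means of 9.58 and 8.05 differed 2.89-fold (adjusted p = 1.1e-04). Obp18a was highest in line 362 (10.79) and lowest in line 380 (9.85), a range of 0.94 (adjusted p = 0.0025). Line 380 was also lowest for Obp19b, at 8.03 against 8.65 to 9.02 in the other lines (adjusted p = 0.028).

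Obp19a, next to Obp19b, was instead lowest in line 859. It had 7.23, 7.85 and 8.26 there, and means of 8.47 to 8.93 in the other 7 lines (adjusted p = 0.0056). A second tested probe set of the gene was lowest in line 859 as well, at a mean of 7.25 against 7.65 to 8.14. The remaining called members were Obp99c (range 0.76), Obp44a (0.72), Obp69a (0.78) and Obp84a (0.81). For these 4 the highest mean was 1.65-fold to 1.75-fold the lowest.

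The 6 members not called between lines were lush (adjusted p = 0.051), Obp19d (0.072), Obp83cd (0.10), Obp83b (0.16), Obp83g (0.36) and Obp19c (0.62). The wide spread between the 2 arrays of a combination set Obp19c and Obp83g apart, with SDs of 1.93 and 1.51, against a median of 0.42 over the members. lush had line means of 8.17 in line 774, 7.67 in the next line and 7.30 in line 379, the lowest. Set against the other 7, line 774 was higher for lush by 0.68 (SE 0.17, adjusted p = 0.0076), while the test over all lines fell just short. Under the 12 alternatives other than leaving out single arrays, lush passed in 5, with adjusted p-values from 4.1e-04 to 0.28, and it passed with 10 of the 48 arrays left out in turn.

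Each line had its own set of members above or below the mean of the other 7. Line 158 was higher for Obp99a and Obp28a and lower for Obp49a and Obp8a (backgrounds of 6.16% of tested probe sets higher and 7.29% lower). Line 304 was lower for Obp22a, Obp8a and Obp84a (6.79%). Line 362 was higher for Obp99c, Obp18a, Obp99b and Obp8a (9.08%), and no member was called lower there (10.4%). Obp8a was thus lower in lines 158 and 304 and higher in line 362. Line 379 was higher for Obp22a (9.47%) and lower for Obp49a (8.09%). Line 774 was higher for Obp49a, Obp69a, lush and Obp8a (9.47%) and lower for Obp99b (5.86%). Line 786 was higher for Obp99a (9.32%) and lower for Obp99b (7.04%), and line 859 was higher for Obp99b and Obp8a (6.97%) and lower for Obp44a, Obp99a and Obp19a (6.87%). The scaling decided some of these calls. Quantile normalisation ended those of Obp28a and Obp8a in line 158. Median centring ended those of Obp28a in line 158, Obp84a in line 304, Obp49a and Obp69a in line 774, and Obp44a in line 859.

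Line 380 stood apart, with 8 of 19 members lower and Obp22a higher. The 8 were Obp99c, Obp44a, Obp19d, Obp18a, Obp99b, Obp28a, Obp19b and Obp8a, by 0.34 (Obp99c) to 1.70 (Obp99b) on the log2 scale. The background in this line was also the widest, with 24.1% of tested probe sets lower and 25.8% higher. In line 380, 17 of 19 members had an estimate below 0. The share of all tested probe sets below 0 is not given here. After quantile normalisation 17 of 19 members were below 0 and 7 were called lower, with 46.0% of all tested probe sets called in either direction. Median centring called 9 lower and no longer called Obp22a, with 48.2% of all tested probe sets called. The neuron index, the mean of 4 of 8 listed genes, had 6.22, 7.49 and 7.67 (lowest, median and highest) in line 380, and line medians of 7.30 to 7.86 elsewhere; 1 array of line 380 also had the lowest median signal of the series, 85.9. The part of these in the lower signals was not tested.

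Lines were not shown to respond differently to the media in any member. The line by medium test called 0 of 19 members and 0% of all tested probe sets in limma, and 4 of 19 members had an unadjusted p under 0.05, against 12.9% of all tested probe sets. The smallest p-values belonged to Obp99c (F = 2.30, adjusted p = 0.34), Obp44a (F = 2.27, adjusted p = 0.34) and Obp99b (F = 2.14, adjusted p = 0.37). For Obp99b the difference of tomato minus standard medium ran from -1.93 in line 774 to 1.24 in line 786. In line 786 the tomato array with a hyphen had 9.00 and the one with a space 6.61, against 6.71 and 6.42 on standard medium. In line 774 both tomato arrays have a hyphen, at 6.92 and 6.86, against 9.06 and 8.58 on standard medium. With 2 arrays a combination, the line by medium p leaves room for such differences.

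**Figure D3:**
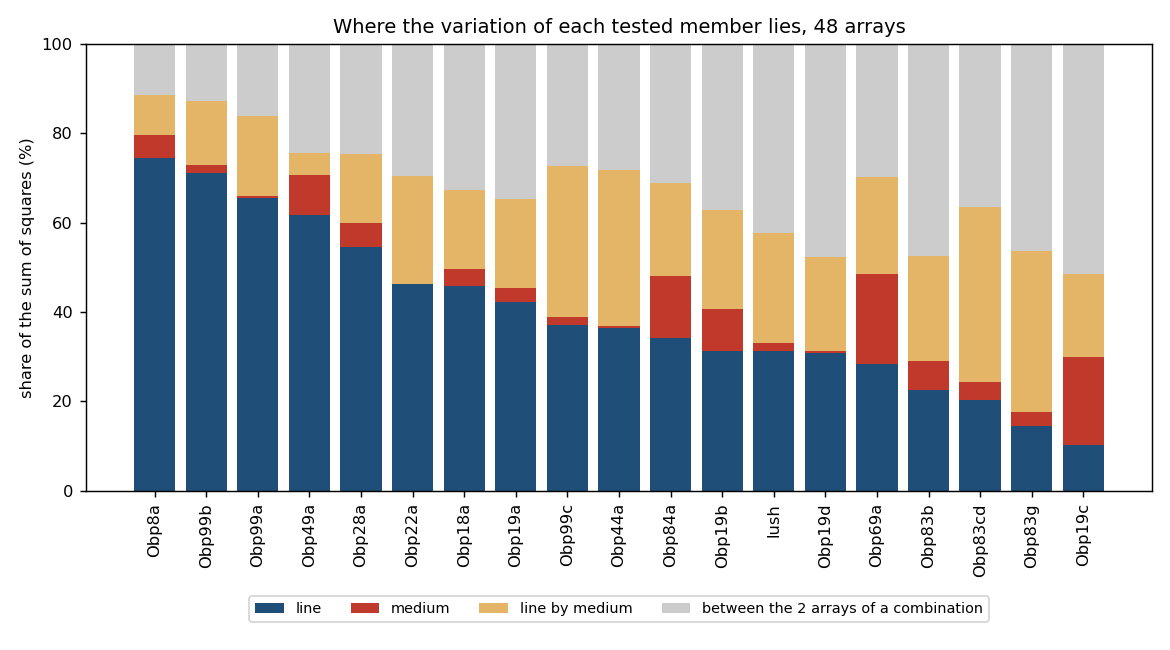
Share of the sum of squares over 48 arrays (y axis, percent) that lies with line, medium, line by medium and the 2 arrays of a combination, for the 19 tested members (x axis) in the order of the line share. Line takes 74.6% for Obp8a at the left and 10.3% for Obp19c at the right, where the arrays of a combination take 51.4%.

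The second question was whether adults raised on different larval foods differed. On tomato against standard medium, Obp49a was called higher and Obp19c lower, and in the arrays whose titles have a space both estimates had the opposite sign. These 2 of 19 compare with 1.15% of all tested probe sets (0.817% higher and 0.329% lower). At an unadjusted p under 0.05 there were 7 of 19 members, in a background of 21.2%. Leaving out line 158, 304, 362, 380, 774 or 859 left 0 members called, and leaving out line 786 left Obp49a. The estimates were above 0 for 13 members and below 0 for 6, with a median of 0.14, against -0.01 over all tested probe sets.

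Obp49a had 7.35, 10.04 and 11.15 (lowest, median and highest of 16 arrays) on tomato medium, 7.43, 9.34 and 10.37 on ethanol medium and 8.07, 9.53 and 10.08 on standard medium. The groups overlapped, and the highest tomato arrays lay above every standard array. The means were 9.83 ± 0.85 on tomato medium and 9.25 ± 0.70 on standard medium (SD, n = 8 lines), a difference of 0.59 (SE 0.12, 1.5-fold, adjusted p = 0.030) that was positive in 8 of 8 lines. By line it ran from 0.03 in line 379 to 1.28 in line 380.

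Within tomato medium, Obp49a followed the title spelling. The 11 hyphen arrays had 9.49, 10.26 and 11.15, against 7.35, 9.63 and 9.91 on the 5 arrays with a space. In the 5 tomato combinations that hold 1 array of each kind, the hyphen array was higher by 1.48 (SE 0.26, adjusted p = 0.0053), and in 5 of 5 pairs. The arrays with a space alone were fitted as single arrays, with line and medium as terms. There, tomato minus standard was -0.35 (SE 0.18, adjusted p = 0.42), against 0.59 from the combination means of all arrays. Larval food and whatever the spelling marks cannot be told apart for the hyphen arrays, since no standard array has a hyphen.

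**Figure D4:**
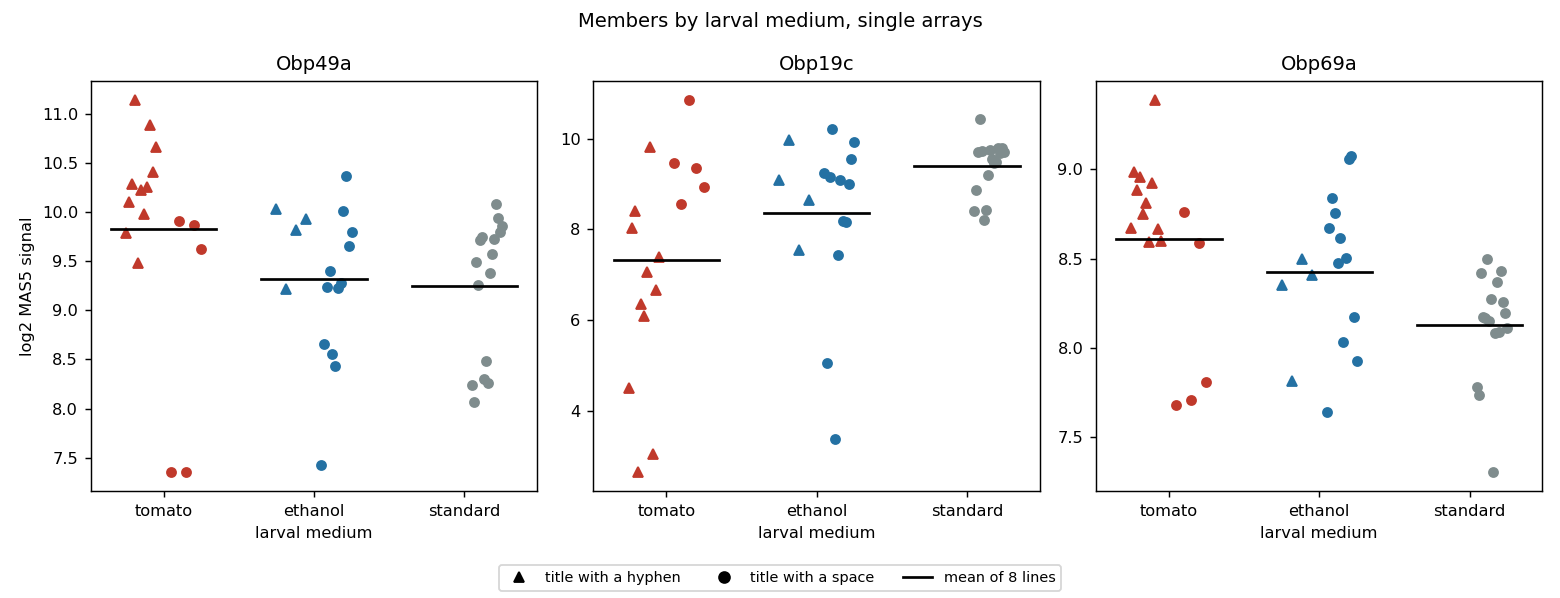
Log2 MAS5 signal (y axes, each with its own range) of Obp49a, Obp19c and Obp69a by larval medium (x axes); points are single arrays, triangles for titles with a hyphen and circles for titles with a space, and horizontal bars are means of the 8 lines. On tomato medium the 11 hyphen arrays lie from 9.49 to 11.15 for Obp49a and from 2.64 to 9.82 for Obp19c, whereas the 5 arrays with a space lie from 7.35 to 9.91 and from 8.57 to 10.86.

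Obp19c had 2.64, 7.71 and 10.86 on tomato medium, 3.37, 9.05 and 10.21 on ethanol medium and 8.20, 9.62 and 10.44 on standard medium. All 16 standard arrays were above 8, whereas tomato and ethanol medium each held arrays down to background. The means were 7.33 ± 1.07 on tomato medium and 9.39 ± 0.52 on standard medium (SD, n = 8 lines), a difference of -2.07 (SE 0.49, adjusted p = 0.048) with 8 of 8 lines lower on tomato medium. Of the tomato arrays 3 of 16, and of the standard arrays 0 of 16, lay under the filter level, so the size of the difference is uncertain and no fold is given. By line it ran from -3.36 in line 362 to -0.21 in line 379. The second probe set of the gene, at a mean of 3.60, was near background and gives no check.

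Here too the low values lay on particular arrays. The 11 tomato arrays with a hyphen had 2.64, 6.67 and 9.82, against 8.57, 9.36 and 10.86 on the 5 with a space. Within the 5 tomato pairs the hyphen array was lower by 3.93 (SE 0.56, adjusted p = 0.0039), in 5 of 5. On 2 of these 5 hyphen arrays, 4.49 in line 158 and 2.64 in line 362, the signal lay under the filter level and under 5.04, so this size is uncertain too. In the arrays with a space alone, tomato minus standard was 0.42 (SE 0.63, adjusted p = 0.69). Low Obp19c also went with low eggshell genes: the 9 arrays of lowest eggshell index had 2.64, 5.06 and 7.43 for Obp19c, against 7.06, 9.24 and 10.86 on the other 39. Those 9 are 6 tomato arrays and 3 ethanol arrays, and the part of the eggshell state in the Obp19c difference was not tested. With the eggshell index as a covariate the tomato difference was -0.72 (SE 0.26, adjusted p = 0.38) for Obp19c and 0.41 (SE 0.13, adjusted p = 0.33) for Obp49a. Since the low index fell only on tomato and ethanol arrays, this fit cannot tell eggshell state from medium or title spelling.

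**Figure D5:**
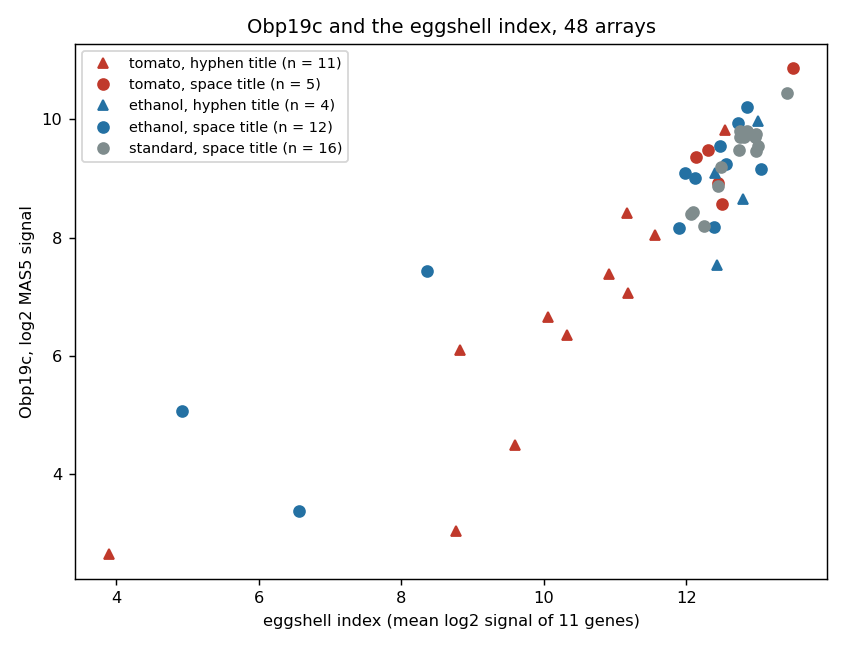
Obp19c (y axis, log2 MAS5 signal) against the eggshell index (x axis, log2 signal averaged over 11 genes) on 48 arrays; colour gives the larval medium and shape the title spelling. The 9 arrays with an index of 10.32 or less have Obp19c between 2.64 and 7.43, and the 16 standard arrays sit at the upper right.

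The genes whose level followed Obp19c most closely over the 24 combinations were CG14834 (Pearson r = 0.97), CG15570 (0.96) and CG14187 (0.96). For Obp49a they were CG2065 (0.90), CG2070 (0.88) and svp (0.83). For the members that differed most between lines, they were Gbp3 (0.83), HINT1 (0.80) and Past1 (0.79) for Obp99b, and CG16762 (0.76), CG3301 (0.76) and fau (0.74) for Obp99a. These are the highest among the tested genes with a single symbol outside the members, of 9419 such genes with members included. The points share lines, media and arrays, and no test was made. CG2065 had its highest line mean in line 774 and its lowest in line 158, like Obp49a. CG2070 was highest in line 362 and lowest in line 379, and svp was highest in line 774 and lowest in line 379.

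Many other members differed by title spelling within the tomato pairs. The hyphen arrays were higher for Obp99c, Obp19d, Obp18a, Obp83b, Obp49a, Obp28a, Obp19b, Obp19a, Obp69a, lush and Obp84a, and lower for Obp19c. This makes 12 of 19, in a background of 43.1% called in either direction. The rises ran from 0.41 for Obp99c to 1.48 for Obp49a, with Obp19b at 1.17 (SE 0.19) and Obp83b at 1.11 (SE 0.18). The estimates were above 0 for 15 of 19 members, and those for Obp99a, Obp99b and Obp8a were below 0 and not called. The share of all tested probe sets above 0 is not given here. After quantile normalisation 10 members were called higher and 2 lower, in a background of 37.6% in either direction. After median centring it was 13 higher and 1 lower, in a background of 47.7%. The eggshell index had 3.90, 10.32 and 12.54 on the 11 hyphen tomato arrays and 12.13, 12.45 and 13.50 on the 5 with a space. The neuron index had 7.40, 7.78 and 8.21 on the hyphen arrays and 6.68, 7.24 and 7.99 on those with a space. The difference between the 3' and 5' probe sets of actin, a sign of RNA quality, had a median of 0.66 on the hyphen arrays and 0.95 on those with a space. For GAPDH, the other such control, the medians were nearly equal, at 1.99 and 2.00. The part of these in the rises was not tested.

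The next members by p for tomato against standard medium were Obp69a and Obp84a, neither of which passed. Quantile normalisation called Obp69a beside Obp49a and Obp19c, in a background of 1.86%. With error from the arrays of a combination the called members were Obp19c, Obp69a, Obp84a and Obp8a, in a background of 7.85%. Obp69a had 7.68, 8.71 and 9.39 on tomato medium, against 7.31, 8.17 and 8.50 on standard medium, a difference of 0.48 (SE 0.13, adjusted p = 0.075) that was positive in 8 of 8 lines. For Obp84a it was 0.41 (SE 0.14, adjusted p = 0.12), positive in 6 of 8. Obp8a was at -0.40 (SE 0.15, adjusted p = 0.15), negative in 8 of 8 lines. Mean tomato signals were 8.84 on hyphen arrays and 8.11 on arrays with a space for Obp69a, against 8.13 on standard medium. For Obp84a they were 7.06 and 6.49, against 6.47, and for Obp8a 6.34 and 7.04, against 6.96. The hyphen and space arrays do not cover the same lines. Without line 379, in which 17 of 19 members had a lower signal on tomato medium than on standard medium, 6 members were called, Obp19b, Obp19c, Obp28a, Obp49a, Obp69a and Obp84a, in a background that also grew, to 25.4% of all tested probe sets. lush differed by 0.14 (SE 0.14, adjusted p = 0.55), with 6.31, 7.73 and 8.75 on tomato medium, 6.67, 7.50 and 8.28 on ethanol medium and 6.77, 7.51 and 8.19 on standard medium.

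No member was called between ethanol and standard medium. In limma the count was 0 of 19, as for all tested probe sets (0%), and 2 of 19 members had an unadjusted p under 0.05, in a background of 5.58%. The smallest p-values were those of Obp69a (0.30, SE 0.13, 6 of 8 lines higher), Obp19c (-1.04, SE 0.49, 7 of 8 lower) and Obp8a (-0.25, SE 0.15, 5 of 8 lower), all with an adjusted p of 0.84. lush, the alcohol-binding member, differed by 0.06 (SE 0.14, adjusted p = 0.93), and 4 of 8 lines were higher. For Obp19c, the 3 ethanol arrays of low eggshell index were 5.06 (line 158), 3.37 and 7.43 (both line 379), and without the 9 arrays of low index the ethanol difference was -0.30 (SE 0.30).

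Tomato against ethanol medium also gave 0 of 19 called members in limma, in a background of 0.107%, with 3 of 19 at an unadjusted p under 0.05 and a background of 6.72%. Obp49a was nearest, at 0.52 (SE 0.12, adjusted p = 0.14, 7 of 8 lines higher). Obp19b had 0.35 (SE 0.16, adjusted p = 0.69, 6 of 8 higher) and Obp19c -1.03 (SE 0.49, adjusted p = 0.74, 6 of 8 lower). In the arrays with a space alone these 3 had the opposite sign, -0.49, -0.55 and 1.74. The 3 medium comparisons share arrays in pairs and are not independent of each other.

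Consecutive members at band 19 did not share an order of lines. Over the 8 line means the Pearson r was -0.08 for Obp19a with Obp19b, 0.01 for Obp19b with Obp19c and -0.10 for Obp19c with Obp19d, and the Spearman rho was 0.17, -0.10 and -0.24 (exact permutation test, two-sided; each adjusted p for r = 0.98 and for rho = 0.84 over the 3 pairs). Without the 2 lines farthest from the median of the first gene, r was 0.54, -0.0015 and -0.49. With 8 lines only strong relations are detectable.

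Other genes of the olfactory periphery and of lipid-binding secreted proteins gave a setting for these values. Of 35 listed genes, 32 had a probe set with a single symbol, 26 were tested and 19 of these 26 were called between lines, against 61.8% of all tested probe sets. In line by medium and in the 3 medium comparisons 0 of 26 were called. The range of line means had a median of 0.98, close to the 0.99 of the members. Orco, the co-receptor of the olfactory receptors, was not called between lines (range 0.83, adjusted p = 0.062), nor was Snmp1 (range 0.77, adjusted p = 0.058), the membrane protein that acts with LUSH in the detection of cis-vaccenyl acetate. CheB38c, of a family of proteins of gustatory hairs, had a range of 3.86 (adjusted p = 2.6e-14) and Npc2d, of a family of secreted sterol-binding proteins, of 3.10 (adjusted p = 5.4e-10).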

How the data were processed

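The authors deposited linear signal intensities computed with MAS5, per the submitters' processing notes (version not given in the sources used here); tested on the values, each array had been scaled to 1 target. Each signal was set to at least 1 and taken to log2. From 18952 probe sets 183 controls were dropped. The 60% with the highest mean among the other 18769 were tested, 11261 in all. Symbols came from GEO's platform table (13646 probe sets with 1 symbol, 402 with several, 4721 with none listed), and gene order from RefSeq.

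Media were tested with limma 3.58.1 in R 4.3.3 on 24 combination means (line and medium as terms, intensity trend, 14 residual degrees of freedom). Lines and line by medium were F-tests on 48 arrays (7 and 14 numerator, 24 residual degrees of freedom). Benjamini-Hochberg adjustment ran over all 11261 probe sets, and calls needed an adjusted p under 0.05. SDs are over 8 lines. The fits were tested on simulated data with 200 changed probe sets a contrast.

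Alternatives were quantile normalisation, median centring, other filters, a pseudocount of 16, no trend, means of all probe sets of a gene, title spelling, array number, eggshell index, other error terms, and leaving out arrays and lines. Every member is named once; full values are given for members called between media, the 8 called members with the largest range of line means, the 3 smallest p where none was called, lush and members with several tested probe sets. Members and lists were chosen with earlier results of these data known. No sequences were used here.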

Additional observations from a re-analysis of the deposited data

Results flagged for a closer look

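Among the 8 line means of each of the 19 tested members, 3 single lines lay far from the rest, by the gap to the nearest line over the whole range; by chance about 1 in 20 such groups would be picked out. Obp19b was at 8.03 in line 380, with the next line at 8.65. Obp19a was at 7.85 in line 859, with the next at 8.47. lush was at 8.17 in line 774, with the next at 7.67. Obp83ef (5.75) and Obp59a (5.59) were not tested, being under the filter, but had mean log2 signals above 5.04, the level that bounds 95% of gustatory receptor probe sets. Without a filter, neither was called between lines (adjusted p = 0.13 and 0.35).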

How the results depend on the processing

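For tomato minus standard medium, the 2 called members became 1 with no filter, with no trend, with the mean of all probe sets or without line 786, each time Obp49a. They became 0 in the arrays with a space, with the title spelling as a block, with the eggshell covariate, without the 9 arrays of low eggshell index, and without line 158, 304, 362, 380, 774 or 859. They became 3 after quantile normalisation (Obp69a added, 1.86% of all tested probe sets called), 4 with error from the arrays of a combination (7.85%; Obp19c, Obp69a, Obp84a and Obp8a, with Obp49a at an adjusted p of 0.066) and 6 without line 379 (25.4%). Leaving out single arrays gave 0 to 6: 6 without tomato array 1 of line 379, 3 without tomato array 2 of line 158 or 1 of line 859, 2 for 19 of 48 arrays, 1 for 14 and 0 for 12. The 12 are both ethanol arrays of line 158, ethanol array 1 of line 362, standard array 2 of lines 304 and 380, both tomato arrays of line 362, tomato array 3 of lines 158, 379 and 786, and tomato array 4 of lines 774 and 859. The 14 are standard array 2 of lines 158 and 379 and 1 of lines 362 and 859, ethanol array 1 of lines 304 and 786, 2 of lines 379 and 380 and 3 of line 859, both ethanol arrays of line 774, and tomato array 3 of lines 304, 380 and 774. Array numbers are not stated to pair arrays, and deviations of same-numbered arrays on ethanol and standard medium correlated between -0.56 and 0.63 by line; the fit with array number as a replicate block gave 0 members for tomato minus standard and -0.16 for Obp49a. For tomato minus ethanol that block gave -0.16 for Obp49a, -0.16 for Obp19b and 0.80 for Obp19c. The arrays with a space gave -0.35 for Obp49a and 0.42 for Obp19c (tomato minus standard), and -0.49, -0.55 and 1.74 for Obp49a, Obp19b and Obp19c (tomato minus ethanol). Tomato minus ethanol gave 1 member (Obp19a) in the arrays with a space, 3 without line 379 and 0 to 1 without single arrays. The shares of all tested probe sets called in these fits are not given here, so the counts cannot be read alone. The 13 members called between lines (61.8% of all tested probe sets) became 8 with error from the line by medium variation (37.3%). Their count was 12 to 16 without single arrays and 10 to 17 otherwise. Of those fits, standard-medium arrays alone called 48.6% of all tested probe sets, and no filter 38.9% of 18769. The shares for the rest are not given here, so these counts cannot be read alone. Ethanol minus standard and line by medium stayed at 0 under every alternative run. Hyphen minus space called 9 to 14 members (12 in the report), where 27.0% to 47.7% of all tested probe sets were called. Lines against the other 7 gave 29 to 38 calls (34 in the report). Both ranges come from alternatives chosen after seeing the data. The causes were not tested. In the 13 alternatives for lines, Obp99b, Obp99a, Obp49a, Obp28a, Obp19a and Obp18a were called each time.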

Other observations

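Of the 15 members near background, Obp99d (adjusted p = 1.9e-04) and Obp50d (adjusted p = 0.013) were called between lines when no filter was applied, where 38.9% of 18769 probe sets were called. Obp99d had a mean log2 signal of 4.91 and single arrays from 1.01 to 7.14, so the size of its change is uncertain.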
